A study of Mus musculus with 8 samples.

Results

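Rsad2, Cmpk2, Mx1 and Mx2 are 4 antiviral genes that type I interferon switches on. They were chosen by gene name and form 4 of the 54532 gene rows of an RNA sequencing table of mouse bone marrow derived macrophages, the phagocytes obtained by culturing bone marrow cells. All 4 were found under their own names. The libraries fall into 4 groups of 2: spermine with 3 h of interferon beta (IFN-β), PBS with 3 h of IFN-β, spermine at 0 h of IFN-β, and PBS at 0 h of IFN-β. Spermine is a polyamine, a small positively charged molecule that cells make themselves, and PBS is the buffer given in its place. The title of the series concerns spermine, the kinase JAK1 and the cytokine response, and the design asks how spermine alters the genes that IFN-β induces. Of the mice, the labels name no strain, sex or age, and they give neither the doses nor the length of the spermine treatment. In every group the sample titles begin with BM1 and BM2, and the labels do not say what these stand for. Whether the 2 libraries of a group came from separate mice or cultures is not stated. The p-values therefore measure the spread between these libraries, which may be technical.

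IFN-β binds the receptor pair Ifnar1 and Ifnar2, whose kinases Jak1 and Tyk2 activate the transcription factor complex ISGF3. Stat2 and Irf9 are subunits of ISGF3, which binds interferon-stimulated response elements in promoters. Rsad2 encodes viperin, a radical SAM enzyme that converts CTP to the chain-terminating nucleotide ddhCTP. Cmpk2 encodes a nucleoside monophosphate kinase of mitochondria, and its gene sits next to Rsad2 in mammals. Mx1 and Mx2 encode dynamin-like GTPases. In the mouse Mx1 protein is nuclear and acts against influenza virus, and Mx2 protein is cytoplasmic and acts against vesicular stomatitis virus. Most inbred laboratory mice carry defective alleles of both Mx genes, so the RNA of these genes need not stand for a working protein.

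Rsad2 (ENSMUSG00000020641) lies on chromosome 12 of GRCm38 from 26442746 to 26456452 on the minus strand, and Cmpk2 (ENSMUSG00000020638) from 26469204 to 26479837 on the plus strand. The 2 genes point away from each other, with starts 12.8 kb apart. Mx1 (ENSMUSG00000000386) lies on chromosome 16 from 97447035 to 97462907 on the minus strand, and Mx2 (ENSMUSG00000023341) from 97535308 to 97560900 on the plus strand. These genes also point away from each other, with starts 72.4 kb apart. The deposited table calls Rsad2, Cmpk2 and Mx1 protein coding and Mx2 a polymorphic pseudogene, and RefSeq lists both Mx genes as transcribed pseudogenes. In GENCODE M21 the longest coding sequences of protein-coding transcripts are 1086 bases for Rsad2, 1341 for Cmpk2, 1881 for Mx1 and 1965 for Mx2. An Mx2 transcript typed as polymorphic pseudogene has 1969 coding bases. Gene-level values cannot show which transcript was present.

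The promoters of the neighbouring pair are shown because both genes rose together on IFN-β, as described further on. Each is the 250 bases before the RefSeq start, on the strand of the gene, from GRCm38.p6: chr12:26456453-26456702 on the minus strand for Rsad2 and chr12:26468965-26469214 on the plus strand for Cmpk2. Capitals mark a match on either strand to GAAANNGAA, the core of an interferon-stimulated response element.
Rsad2: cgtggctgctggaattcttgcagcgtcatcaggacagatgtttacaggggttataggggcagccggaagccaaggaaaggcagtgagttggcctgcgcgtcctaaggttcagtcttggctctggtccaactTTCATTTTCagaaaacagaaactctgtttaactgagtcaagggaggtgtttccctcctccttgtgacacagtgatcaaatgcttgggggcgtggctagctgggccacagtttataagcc
Cmpk2: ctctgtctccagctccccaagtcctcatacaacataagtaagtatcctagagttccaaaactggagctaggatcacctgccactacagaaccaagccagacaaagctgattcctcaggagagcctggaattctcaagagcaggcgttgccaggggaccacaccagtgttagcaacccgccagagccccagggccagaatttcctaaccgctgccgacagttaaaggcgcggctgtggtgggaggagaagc
The Rsad2 window held 1 match, on the strand opposite to the gene, beginning 119 bases before the start (position -119). The Cmpk2 window held no match to this motif. Among 32851 RefSeq promoter windows, 8.56% held it. Those windows also ran past the start and were longer than the 250 bases shown, so the share is not one for windows of the shown length. TTCNNNGAA, the gamma-activated sequence, was in neither shown window and in 8.3% of the longer windows. A match is a run of letters and does not show that a factor binds there.

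Levels are in FPKM, fragments per kilobase of gene length on a scale that holds the median gene steady between libraries. Libraries held between 15723437 and 17744844 reads. Rsad2 reached 2441 and 2638 FPKM in the spermine 3 h libraries and 5125 and 4434 FPKM in the PBS 3 h libraries. Before IFN-β it stood at 3.73 and 3.78 FPKM with spermine, and at 3.23 and 2.92 FPKM with PBS. The PBS 3 h libraries were the highest, both spermine 3 h libraries lay below them, and all 0 h libraries were far lower. In PBS at 3 h Rsad2 ranked 6th by mean FPKM of the 11421 genes tested, with 1.85% of all reads. With spermine at 3 h it ranked 16th, with 0.928% of all reads.

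Cmpk2 stood at 2328 and 2349 FPKM in spermine 3 h libraries and at 3035 and 3038 FPKM in PBS 3 h libraries. The 0 h values of Cmpk2 were 1.09 and 1.51 FPKM with spermine, against 2.51 and 1.67 FPKM with PBS. The groups did not overlap at either time, with spermine the lower. With 2 libraries against 2, an exact permutation test cannot give a two-sided p below 0.333. The share of all genes tested without such overlap was not counted, here or for the genes below. At 0 h Cmpk2 rested on 75 and 114 reads with spermine and on 239 and 140 reads with PBS.

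Mx1 stood at 631 and 660 FPKM in spermine 3 h libraries and at 1369 and 1180 FPKM in PBS 3 h libraries. At 0 h its values were 2.14 and 1.67 FPKM with spermine, against 2.38 and 1.85 FPKM with PBS. Groups were apart at 3 h and overlapped at 0 h. Mx2 was the least abundant of the 4 in every group, at 112 and 111 FPKM with spermine at 3 h and 176 and 147 FPKM with PBS at 3 h. Without IFN-β Mx2 had 0.334 and 0.319 FPKM with spermine, from 20 and 21 reads, and 0.652 and 0.535 FPKM with PBS, from 54 and 39 reads. Mx2 was lower with spermine in both libraries at each time, and its 0 h values rest on few reads.

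**Figure D1:**
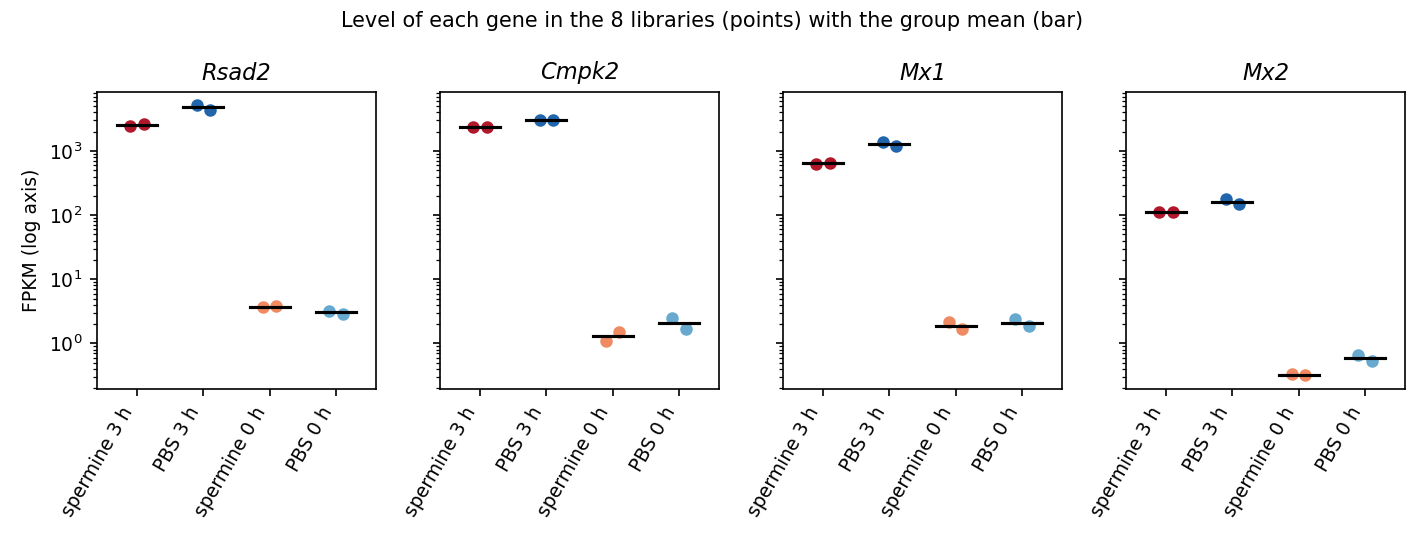
FPKM of each gene on a log axis in the 8 libraries (points), with the mean of each group as a bar and groups as columns. At 3 h the PBS libraries lie above the spermine libraries for every gene, and the 0 h libraries of all 4 genes lie below 4 FPKM. The share of all genes tested whose groups lie apart in this way was not counted.

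In group means the order by FPKM at 3 h was Rsad2, Cmpk2, Mx1 and Mx2, with spermine as with PBS. Rsad2 averaged 2540 ± 139 FPKM with spermine at 3 h and 4779 ± 489 FPKM with PBS at 3 h (SD, n = 2 each). Cmpk2 averaged 2339 ± 14.5 FPKM with spermine at 3 h and 3036 ± 1.96 FPKM with PBS at 3 h (SD, n = 2 each). Rsad2 and Cmpk2 were thus close to each other with spermine and further apart with PBS, and their libraries did not overlap in either group. Mx1 averaged 645 ± 20.6 FPKM with spermine at 3 h and 1274 ± 134 FPKM with PBS at 3 h. Mx2 averaged 111 ± 0.727 FPKM with spermine at 3 h and 161 ± 20.5 FPKM with PBS at 3 h. Gaps between neighbours in the order were larger than the spread between libraries at 3 h. At 0 h the order was Rsad2, Mx1, Cmpk2 and Mx2 with spermine, where Mx1 averaged 1.9 ± 0.33 FPKM and Cmpk2 1.3 ± 0.295 FPKM with no overlap of their libraries. In PBS at 0 h Mx1 at 2.11 ± 0.373 FPKM and Cmpk2 at 2.09 ± 0.593 FPKM did not differ beyond their spread. Summed, the 4 genes took 1.99 ± 0.0547% of reads with spermine at 3 h and 3.47 ± 0.16% with PBS at 3 h (SD, n = 2 each), a share of reads that also weights genes by length. At 0 h their sum was 0.00318% of reads with spermine and 0.00413% with PBS.

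Markers fit the label of macrophages. The 9 macrophage markers summed to between 13821 and 13935 FPKM with spermine at 3 h, 11330 and 12172 with PBS at 3 h, 12476 and 13034 with spermine at 0 h, and 11378 and 12373 with PBS at 0 h. Lyz2 made up most of these sums, at group means of 9867, 8207, 9445 and 8959 FPKM in that order. Fcgr1 averaged 492 FPKM with spermine and 624 FPKM with PBS at 3 h, against 35.6 and 52.3 FPKM at 0 h. Mertk averaged 20.4 and 32.5 FPKM at 3 h, against 6.04 and 14.4 FPKM at 0 h. Of other cells, the defining genes Cd3e of T cells, Ncr1 of NK cells and Ly6g of neutrophils were at 0 in all libraries. Some sums moved with the groups. At 3 h the T and NK cell sum, nearly all Lck, was 1.1 to 1.27 FPKM with spermine and 3.95 to 4.7 FPKM with PBS. It was at most 0.205 FPKM at 0 h. The dendritic cell sum, nearly all Xcr1, was 5.72 to 6.59 FPKM with spermine at 3 h and 3.28 to 4.63 FPKM with PBS at 3 h. At 0 h the dendritic cell sum was 1.23 to 1.31 FPKM with spermine, mostly Xcr1, and 0.365 to 0.419 FPKM with PBS. In that PBS group Siglech averaged 0.18 FPKM and Xcr1 0.103 FPKM. The platelet and red cell sum, nearly all Pf4, was 38.3 to 42.3 FPKM with spermine at 3 h and 23.0 to 26.4 FPKM with PBS at 3 h. At 0 h it was 50.5 to 58.3 FPKM with spermine and 22.3 to 25.8 FPKM with PBS. Neutrophil markers reached at most 9.87 FPKM in sum, B cell markers 1.01 and stromal markers 0.658. The part of these genes in the results that follow was not tested.

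All 4 genes rose with 3 h of IFN-β, with and without spermine. Log2(FPKM + 1) was compared with limma, and a gene is said to have changed when its p-value, adjusted over the 11421 genes tested, is under 0.05. Fold changes on this scale understate the change of genes with low values, and all 4 genes were low at 0 h. In bulk RNA, fewer responding cells and less RNA per cell cannot be told apart. Each gene passed the filter for testing, and Mx2 passed it through its 3 h values alone. The IFN-β rise of Mx2 is therefore given as a value and not as a test.

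With spermine, Cmpk2 rose by 10.00 ± 0.14 on the log2 scale (SE, limma adjusted p = 3.14e-08), the largest rise of the 11421 genes on the log2(FPKM + 1) scale. This order depends on the processing: Cxcl10, a chemokine for T cells, had the larger value with a pseudocount of 0.1 (10.98 against 10.73 for Cmpk2), after TPM rescaling (10.24 against 10.18) and in the fit to rebuilt reads (11.17 against 10.82). Rsad2 rose by 9.06 ± 0.09 (limma adjusted p = 1.56e-08), the 6th largest. Mx1 rose by 7.80 ± 0.12 (limma adjusted p = 4.24e-08) and Mx2 by 6.40 ± 0.10, the 11th and 26th largest. Of all genes tested, 19.7% rose and 22.1% fell in this comparison. In linear FPKM the means at 3 h were 1804-fold those at 0 h for Cmpk2, 676-fold for Rsad2, 340-fold for Mx2 and 339-fold for Mx1.

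With PBS, Rsad2 rose by 10.19 ± 0.09 (limma adjusted p = 1.20e-08), the 3rd largest rise, and Cmpk2 by 9.96 ± 0.14 (adjusted p = 2.78e-08), the 4th. Mx1 rose by 8.68 ± 0.12 (limma adjusted p = 2.78e-08) and Mx2 by 6.67 ± 0.10, the 8th and 31st largest. Of all genes tested, 24.6% rose and 25.0% fell. Linear FPKM means at 3 h were 1554-fold those at 0 h for Rsad2, 1454-fold for Cmpk2, 603-fold for Mx1 and 272-fold for Mx2. On the log2(FPKM + 1) scale the 4 genes thus stood among the steepest rises with spermine as with PBS, with Rsad2 ahead of Cmpk2 in PBS and behind it with spermine.

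All changes here are relative to the median gene, since the deposited scale holds that gene steady. Rescaling to TPM, which gives every library the same summed length-scaled level, moved the median log2 change of all genes. For IFN-β it was -0.32 with spermine and -0.46 with PBS, against -0.01 and -0.02 on the deposited scale. For spermine it was -0.19 at 3 h and -0.30 at 0 h, against -0.00 and 0.01 as deposited, and for the difference of responses 0.12, against -0.02 as deposited. The share of changed genes that were higher was 47.1% for IFN-β with spermine as deposited, 21.5% after TPM rescaling and 33.6% after quantile normalization. For IFN-β with PBS it was 49.6% as deposited, 21.1% after TPM rescaling and 36.6% after quantile normalization. Among genes changed by spermine at 3 h the share was 49.2% as deposited and 26.7% after TPM rescaling. At 0 h it was 53.3% as deposited and 20.0% after TPM rescaling. Among genes whose responses differed it was 42.9% as deposited and 67.1% after TPM rescaling. The directions of the IFN-β rises of all 4 genes were the same under each of these scales.

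**Figure D2:**
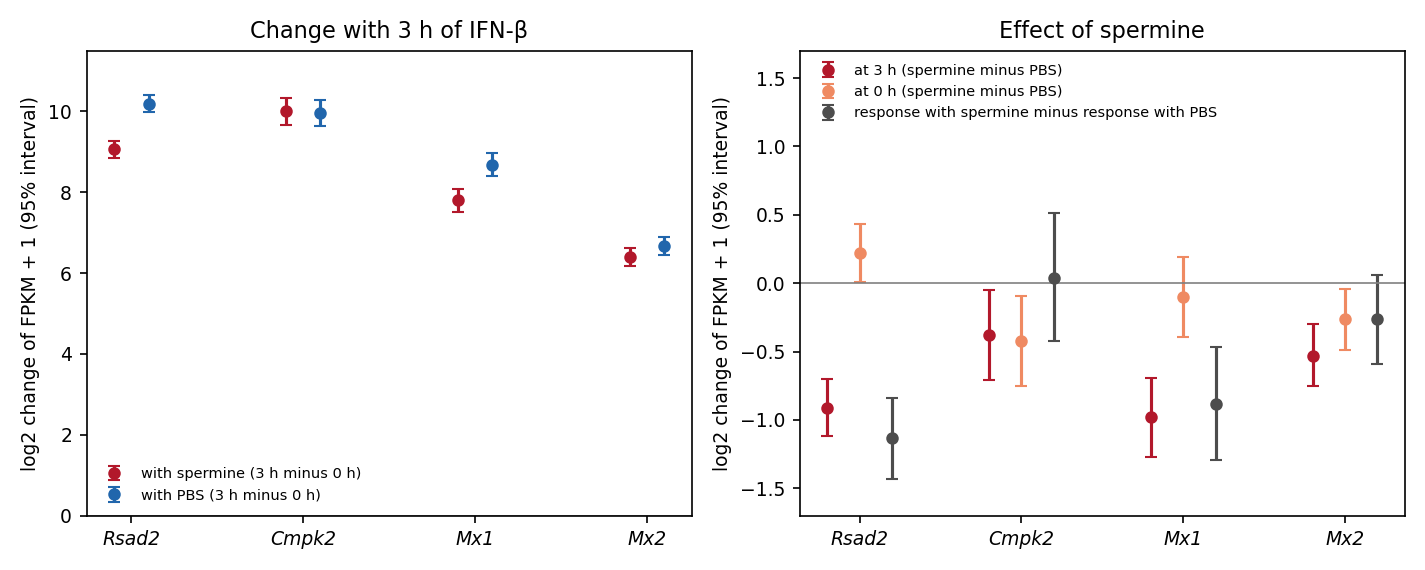
Log2 changes of FPKM + 1 with their 95% intervals from limma for the 4 genes, with the rise on IFN-β in one panel and the spermine comparisons in the other. The intervals of Rsad2 and Mx1 lie below 0 at 3 h and for the difference of responses, and that of Cmpk2 spans 0 for the difference.

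At 3 h of IFN-β spermine lowered Mx1, Rsad2 and Mx2 in the limma test, and Cmpk2 was lower without passing it. Mean FPKM with spermine was 50.6% of that with PBS for Mx1, 53.1% for Rsad2, 68.9% for Mx2 and 77.0% for Cmpk2. Rsad2 fell by 0.91 ± 0.09 on the log2 scale (95% interval -1.12 to -0.70, limma adjusted p = 0.000378). Mx1 fell by 0.98 ± 0.12 (95% interval -1.27 to -0.69, limma adjusted p = 0.00109). Mx2 fell by 0.53 ± 0.10 (95% interval -0.75 to -0.30, limma adjusted p = 0.00521). The Cmpk2 difference was -0.38 ± 0.14 (95% interval -0.71 to -0.05, limma adjusted p = 0.069). Cmpk2 libraries agreed closely within each group, and its estimate passed the threshold in the fits to TPM, quantile-normalized values and rebuilt reads and in the fit to the 3 h libraries alone. It also passed at -0.38 when PBS 0 h replicate 1 or PBS 0 h replicate 2 was left out. Thus 3 of the 4 genes fell and none rose, where 20.6% of all genes tested fell and 19.9% rose. In size these were not extreme among all genes, since Mx1 had the 412th and Rsad2 the 504th lowest log2 change of 11421.

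At 0 h of IFN-β, 1 of the 4 genes passed the test for spermine against PBS. Cmpk2 fell by 0.42 ± 0.14 on the log2 scale (95% interval -0.75 to -0.09, limma adjusted p = 0.0485), where 19.2% of all genes tested fell and 22.0% rose. This call was lost in 6 of the 8 fits that left out 1 library; leaving out PBS 0 h replicate 1 gave -0.22, and leaving out spermine 0 h replicate 1 gave -0.29. The Rsad2 difference was 0.22 ± 0.09 (95% interval 0.01 to 0.43, limma adjusted p = 0.0842), and after TPM rescaling it was -0.05. Mx2 differed by -0.26 ± 0.10 (95% interval -0.49 to -0.04, limma adjusted p = 0.0655), and with the smaller pseudocount of 0.1 it fell by 0.70 and passed the test. Rsad2, at 0.22, and Mx2, at -0.26, also passed when either PBS 3 h library was left out. For Mx1 the difference was -0.10 ± 0.12 (95% interval -0.39 to 0.19, limma adjusted p = 0.556). In linear FPKM the means with spermine were 122% of those with PBS for Rsad2, 90.1% for Mx1, 62.1% for Cmpk2 and 55.0% for Mx2. With 20 to 321 reads per gene and library at 0 h, differences of this size sit close to what the libraries can separate.

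The difference of responses, the log2 rise on IFN-β with spermine minus that with PBS, passed the test for 2 of the 4 genes. Rsad2 rose less with spermine, by -1.13 ± 0.13 (95% interval -1.43 to -0.84, limma adjusted p = 0.00354). Mx1 also rose less, by -0.88 ± 0.17 (95% interval -1.29 to -0.47, limma adjusted p = 0.0212). This Mx1 call was lost after TPM rescaling, with a pseudocount of 0.1, with no filter on low values, and in 5 of the 8 fits that left out 1 library. Those 5 fits gave -0.75 with PBS 0 h replicate 2 left out, -0.76 with spermine 0 h replicate 1 left out and -0.77 with PBS 3 h replicate 1 left out. The other 2 gave -0.85 with spermine 3 h replicate 1 left out and -0.91 with spermine 3 h replicate 2 left out. For Mx2 the difference was -0.26 ± 0.14 (95% interval -0.59 to 0.06, limma adjusted p = 0.248); its sign was positive with a pseudocount of 0.1 and in the fit to rebuilt reads. Cmpk2 gave 0.04 ± 0.20 (95% interval -0.42 to 0.51, limma adjusted p = 0.906), an interval that spans 0. So 2 of the 4 genes had a smaller rise with spermine and none a larger one, where 7.75% of all genes tested had a smaller rise and 5.82% a larger one.

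The neighbouring genes Rsad2 and Cmpk2 differed in their ratio between groups. Rsad2 FPKM divided by Cmpk2 FPKM was 1.05 and 1.12 with spermine at 3 h and 1.69 and 1.46 with PBS at 3 h. At 0 h this ratio was 3.43 and 2.51 with spermine, against 1.29 and 1.75 with PBS. Spermine libraries thus had the lower ratio at 3 h and the higher ratio at 0 h, with no overlap at either time. For the other neighbours, Mx1 FPKM divided by Mx2 FPKM was 5.64 and 5.96 with spermine at 3 h and 7.78 and 8.03 with PBS at 3 h. The Mx ratio at 0 h was 6.4 and 5.23 with spermine, against 3.64 and 3.45 with PBS. The Mx ratio was therefore lower with spermine at 3 h and higher with spermine at 0 h, again with no overlap. With 2 libraries against 2 an exact permutation test cannot give a two-sided p below 0.333, so the ratios are given as values only. Across chromosomes, Rsad2 FPKM divided by Mx1 FPKM was 3.87 and 4.0 with spermine at 3 h and 3.74 and 3.76 with PBS at 3 h. At 0 h this ratio was 1.75 and 2.26 with spermine, against 1.36 and 1.58 with PBS. It was higher with spermine at both times, with no overlap, and the gap at 3 h was small.

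**Figure D3:**
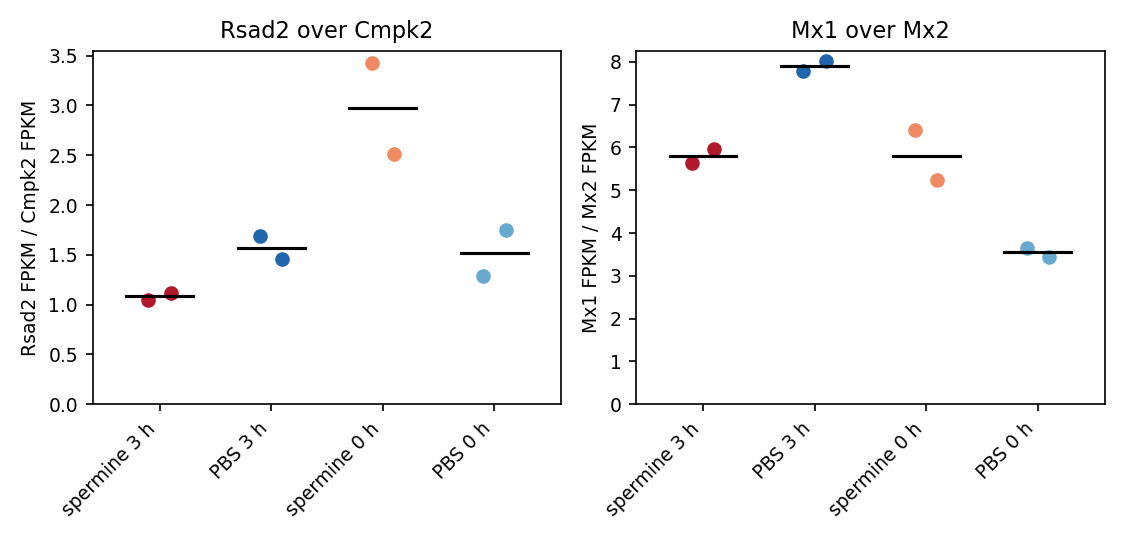
Ratio of FPKM between gene pairs in each library (points), with groups as columns and a linear axis that starts at 0. The ratios of Rsad2 to Cmpk2 and of Mx1 to Mx2 are lower with spermine than with PBS at 3 h and higher with spermine at 0 h.

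Beside the 39 other antiviral effectors that could be tested, chosen from the Ifit, Oas, Gbp and similar families, Rsad2 and Cmpk2 stood near the top in induction on the log2(FPKM + 1) scale. All 39 rose with spermine (median log2 change 5.31) and all 39 rose with PBS (median 5.17). The medians over all genes tested were -0.01 and -0.02, and 19.7% of them rose with spermine and 24.6% with PBS. Some of the 39, such as Cxcl10, Gbp5 and Iigp1, passed the filter for testing only through their 3 h values. Rises of such genes are values and not tests. No other effector rose more than Cmpk2 with spermine in this fit, though Cxcl10 did under the alternatives named above. With PBS 1 effector rose more than Rsad2, namely Cxcl10 (10.75 log2). More effectors rose beyond Mx1 (6 with spermine and 4 with PBS) and beyond Mx2 (14 with spermine and 12 with PBS). Of all genes tested 20.6% fell with spermine at 3 h and 19.9% rose. Among the 39 effectors spermine lowered 25 at 3 h and raised 4 (median -0.51, against -0.00 over all genes). Rsad2 lay below all but 3 of them and Mx1 below all but 2, whereas 25 effectors lay below Cmpk2 and 17 below Mx2. Ifi44, an interferon-induced antiviral protein gene, fell by 1.60 (limma adjusted p = 8.72e-05), and Cxcl10 fell by 1.09 (adjusted p = 0.000626). Oasl1, which restrains Irf7 translation in mice, rose by 1.04 (limma adjusted p = 0.00133). At 0 h, where 19.2% of all genes tested fell and 22.0% rose, spermine lowered 20 effectors and raised 7 (median -0.42, against 0.01 over all genes). Among them Ifit1, a binder of viral RNA caps, fell by 0.96 (limma adjusted p = 0.00859).

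For the difference of responses 7.75% of all genes tested had a smaller rise with spermine and 5.82% a larger one. Of the 39 effectors 10 had a smaller rise and 5 a larger one (median -0.16, against -0.02 over all genes). After quantile normalization 12 were smaller and 5 larger, whereas after TPM rescaling 4 were smaller and 9 larger, and in the limma voom fit to rebuilt reads 3 were smaller and 9 larger. The differences of Rsad2 and Mx1 were negative in each of these fits. Ifi44 at -1.54 (limma adjusted p = 0.00285) and Isg20, an RNA exonuclease, at -1.26 (adjusted p = 0.00313) lay below Rsad2. Irgm1, an immunity-related GTPase, had a larger rise with spermine, by 1.17 (limma adjusted p = 0.00479).

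**Figure D4:**
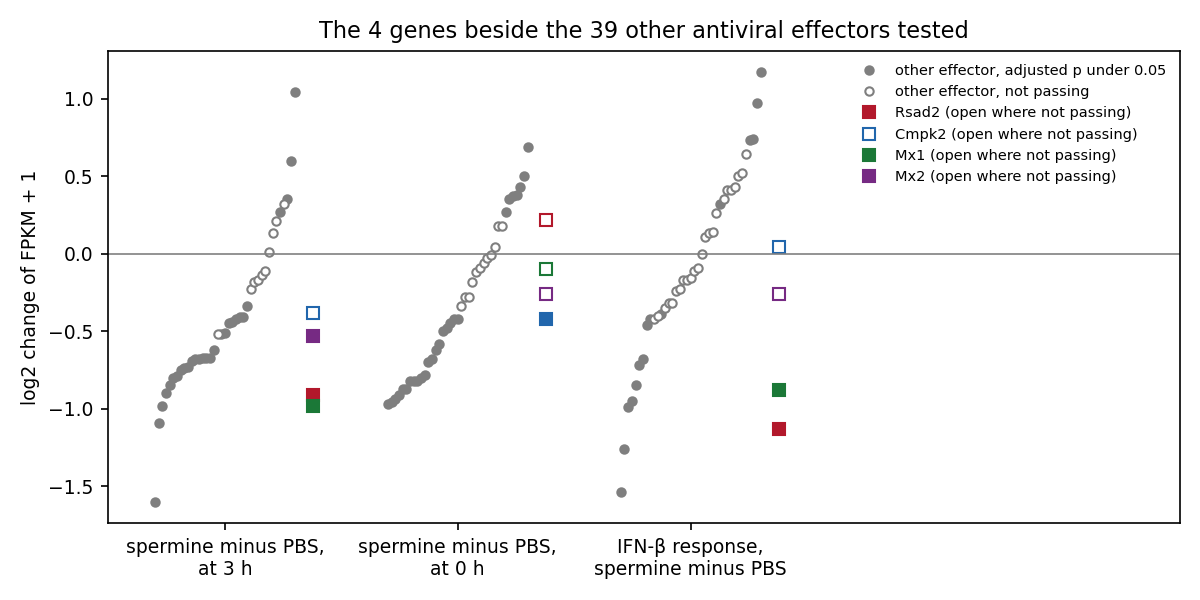
Log2 changes of FPKM + 1 for the 39 other effectors (circles, sorted within each comparison) and the 4 genes (squares), with filled symbols for an adjusted p under 0.05. Rsad2 and Mx1 lie in the lower part of the effectors at 3 h and for the difference of responses, and Cmpk2 and Mx2 lie in the middle.

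The genes upstream of the 4, in type I interferon signalling, rose on IFN-β in 11 of 15 cases with spermine and 12 of 15 with PBS, with 1 fall in PBS (9 rises and 4 falls in PBS after TPM rescaling). At 3 h spermine lowered 7 of the 15 and raised 3 (median -0.33), where 20.6% of all genes tested fell and 19.9% rose. At 0 h it lowered 10 and raised 2 (median -0.57), where 19.2% of all genes tested fell and 22.0% rose. Stat2, a subunit of ISGF3, stood at 164.0 and 170.0 FPKM with spermine at 3 h and 216.0 and 221.0 FPKM with PBS at 3 h, and fell by 0.39 (limma adjusted p = 0.0407), a call lost in 4 of the 8 fits that left out 1 library. Stat2 was also lower with spermine at 0 h, where it fell by 1.10 (limma adjusted p = 0.000621). Irf9, the DNA-binding subunit, fell by 0.41 at 0 h (limma adjusted p = 0.0129) and differed by 0.13 at 3 h (adjusted p = 0.324).

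RNA of the receptor kinase Jak1 stood at 37.3 and 38.7 FPKM with spermine at 3 h and at 37.6 and 35.0 FPKM with PBS at 3 h, which overlap. The Jak1 difference was 0.07 at 3 h (limma adjusted p = 0.554), and at 0 h Jak1 rose by 0.27 (adjusted p = 0.0354), a call whose sign turned after TPM rescaling and which was lost in 5 of the 8 fits that left out 1 library. Tyk2, the other receptor kinase, fell by 0.91 at 3 h and by 0.57 at 0 h (limma adjusted p = 0.00209 and 0.0139). Of the receptor chains, Ifnar2 rose by 0.32 at 3 h (limma adjusted p = 0.00665), and Ifnar1 fell by 0.52 at 0 h (adjusted p = 0.00151) and differed by -0.08 at 3 h (adjusted p = 0.394). These are RNA levels and say nothing of kinase activity.

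The difference of responses of the signalling genes leaned the other way to Rsad2 and Mx1. Of all genes tested 5.82% had a larger response with spermine and 7.75% a smaller one. In 7 of 15 signalling genes the change on IFN-β was more positive with spermine and in 1 it was less so (median 0.44). After quantile normalization the counts were 5 and 4. Among the 7, Ifnar1 (0.44, limma adjusted p = 0.0337) lost its call in 8 of the 8 fits that left out 1 library. Ifnar2 (0.47, limma adjusted p = 0.0177) lost its call in 5 of those 8 fits. Irf1, an interferon-induced transcription factor, rose more by 1.83 (limma adjusted p = 0.00132) and Irf8 by 1.27 (adjusted p = 0.00509). Both started lower with spermine. Irf1 was lower by 1.02 at 0 h and higher by 0.81 at 3 h (limma adjusted p = 0.000127 and 0.000345). Irf8 was lower by 1.22 at 0 h and differed by 0.06 at 3 h (limma adjusted p = 0.000314 and 0.717). Stat2 rose more by 0.71 (limma adjusted p = 0.0398) and Irf9 by 0.54 (adjusted p = 0.0435), and each call was lost after quantile normalization and in 7 of the 8 fits that left out 1 library. Socs1, a feedback inhibitor of Jak kinases, rose less by -1.79 (limma adjusted p = 0.0197), a call lost in 4 of those 8 fits. The comparisons of this and the preceding paragraphs share their libraries, so they do not stand as separate lines of data.

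In human cells viperin works with iron-sulfur assembly factors and binds several lipid and signalling proteins, and 15 such genes could be tested. With IFN-β 1 rose and 2 fell in spermine (median -0.06), where 19.7% of all genes tested rose and 22.1% fell. In PBS 2 rose and 3 fell (median 0.04), where 24.6% of all genes rose and 25.0% fell. After TPM rescaling 9 fell in spermine and 10 in PBS. Tmem173, which encodes the DNA-sensing adaptor STING that viperin can bind, stood at 39.4 and 40.6 FPKM with spermine at 3 h and 77.4 and 76.9 FPKM with PBS at 3 h. It fell by 0.93 at 3 h and by 0.63 at 0 h with spermine (limma adjusted p = 0.000214 and 0.000997). Vapa, a membrane anchor of the endoplasmic reticulum, stood at 61.4 and 60.3 FPKM with spermine at 3 h and 31.1 and 32.0 FPKM with PBS at 3 h, a rise of 0.92 (limma adjusted p = 7.31e-05). Vapa also rose by 1.08 at 0 h (limma adjusted p = 3.92e-05). Ciao1, an iron-sulfur targeting factor that serves viperin, stood at 9.36 and 9.28 FPKM with spermine at 3 h and 9.88 and 8.89 FPKM with PBS at 3 h, which overlap. Fdps, a farnesyl diphosphate synthase that binds viperin, fell by 0.77 on IFN-β in PBS (limma adjusted p = 0.00126), but its processed pseudogenes may take reads, so its value is uncertain. With spermine 19.9% of all genes tested rose and 20.6% fell at 3 h, and 22.0% rose and 19.2% fell at 0 h. In this list 1 gene rose and 2 fell with spermine at 3 h, and at 0 h 2 rose and 2 fell (median -0.01 at both times). After TPM rescaling 1 rose and 4 fell at 3 h (median -0.20), and 1 rose and 10 fell at 0 h (median -0.35). For the difference of responses 0 of the 15 passed by limma or by limma voom on rebuilt reads, and 4 had an unadjusted limma p under 0.05.

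Cmpk2 and viperin both act on pyrimidine nucleotides, and 20 of 27 genes of nucleotide supply in the table could be tested. On IFN-β 4 were higher and 4 lower in spermine (median 0.01), close to the 19.7% and 22.1% of all genes. In PBS 5 were higher and 5 lower (median -0.18), close to the 24.6% and 25.0% of all genes, and after TPM rescaling 4 were higher and 12 lower. Dck, a deoxycytidine kinase, stood at 164.0 and 157.0 FPKM with spermine at 3 h and 175.0 and 153.0 FPKM with PBS at 3 h. At 0 h Dck stood at 21.1 and 21.3 FPKM with spermine, against 6.16 and 5.43 FPKM with PBS. The Dck libraries overlapped at 3 h, and at 0 h Dck rose by 1.71 with spermine (limma adjusted p = 3.02e-05), so that its rise on IFN-β was smaller with spermine by -1.74 (adjusted p = 0.00137). Of all genes tested 19.9% rose and 20.6% fell with spermine at 3 h, and 22.0% rose and 19.2% fell at 0 h. With spermine 2 of the 20 rose and 3 fell at 3 h, and 2 rose and 6 fell at 0 h. After TPM rescaling 1 rose and 5 fell at 3 h, and 2 rose and 10 fell at 0 h. For the difference of responses 7.75% of all genes tested had a smaller rise with spermine. In this list 3 of the 20 passed, each with a smaller rise with spermine, and after TPM rescaling 2 were smaller and 2 larger. Samhd1, which breaks down deoxynucleotides, fell by 0.60 with spermine at 3 h (limma adjusted p = 0.000644). It was also among the 3 with a smaller rise, by -0.36 (limma adjusted p = 0.0489). That call was lost in 7 of the 8 fits that left out 1 library. Upp1, a uridine phosphorylase, fell by 0.93 with spermine at 3 h (limma adjusted p = 0.000845). Cmpk1, the cytosolic relative of Cmpk2, stood at 49.6 and 50.1 FPKM with spermine at 3 h and 61.1 and 49.4 FPKM with PBS at 3 h, which overlap. Its IFN-β changes were 0.10 with spermine (limma adjusted p = 0.556) and 0.45 with PBS (adjusted p = 0.0185). Cmpk1 was chosen after its values were seen.

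On IFN-β 22.1% of all genes tested fell with spermine and 24.6% rose with PBS. Among 7 other dynamin family genes, relatives of the Mx proteins in membrane fission and fusion, 1 fell on IFN-β with spermine (median -0.13) and 1 rose with PBS (median 0.05). These were Atl2 and Atl3, which shape the endoplasmic reticulum. The Atl2 change of -0.28 (limma adjusted p = 0.0426) lost its call in 7 of the 8 fits that left out 1 library, with no filter, with the replicate block and in the fit of the 2 groups alone. The Atl3 change of 0.36 (limma adjusted p = 0.0306) lost its call in 5 of those 8 fits and turned sign after TPM rescaling. After TPM rescaling 4 of the 7 fell on IFN-β with spermine and 4 with PBS. Spermine raised Atl2 by 0.34 and lowered Atl3 by 0.40 at 3 h (limma adjusted p = 0.0215 and 0.0269), the only 2 of the 7 to pass there, and each call was lost in 3 of those 8 fits. At 0 h 1 rose and 1 fell. After TPM rescaling 0 rose and 4 fell at 3 h, and 1 rose and 3 fell at 0 h. For the difference of responses 0 of the 7 passed by limma or by limma voom on rebuilt reads, and 1 had an unadjusted limma p under 0.05.

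The genes whose pattern was most like each member were found from the group means of log2(FPKM + 1), each gene centred on its own mean, as the root mean square difference over the 4 groups. For Rsad2 the nearest was Ifit1bl1 (0.20), followed by Ifit2 (0.33), Cxcl10 (0.34), Iigp1 (0.44) and Ifit1 (0.51). Ifit1bl1 stood at 971.0 FPKM with spermine at 3 h and at 2509 FPKM with PBS at 3 h, in group means. For Cmpk2 they were Cxcl10 (0.31), Ifit1bl1 (0.40), Ifit2 (0.41), Ifit1 (0.48) and Ifit3 (0.65). Rsad2 and Cmpk2 shared 4 of their 5 nearest genes, and the difference between the pair themselves was 0.34. The rise on IFN-β weighs most in this measure, since it was far larger than the effect of spermine. Among the 5 nearest genes of each, the difference of responses ran from -1.48 (Ifit1bl1) to 0.43 (Ifit1). It was -1.13 for Rsad2 and 0.04 for Cmpk2. For Mx1 the nearest were Ifit3b (0.12), Gbp2 (0.21), Gbp5 (0.22), Iigp1 (0.26) and Ifit3 (0.40). For Mx2 they were Gm4951 (0.14), Ifi208 (0.18), Usp18 (0.21), Ifi206 (0.22) and Zbp1 (0.22). On this scale the Mx pair differed by 0.87 and Rsad2 and Mx1, on separate chromosomes, by 0.70. This order rests on the added 1, which shrinks the rise of Mx2, a gene below 1 FPKM at 0 h. Without it the log2 folds with spermine were 8.4 for Mx1, 8.41 for Mx2 and 9.4 for Rsad2. With PBS they were 9.24, 8.09 and 10.6. Ifit and Ifi200 genes have similar copies, and the labels do not say how reads shared between copies were counted, so their values are uncertain.

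Within 500 kb of either gene of each pair, the named genes had the highest FPKM of the rows listed at 3 h. None of the 12 rows around Rsad2 and Cmpk2 reached the level needed for testing, and 8 had no read in any library. Around Mx1 and Mx2 4 of 17 rows were tested and 4 had no read. Tmprss2, a transmembrane serine protease gene starting 148.3 kb from Mx1, had 1.68 and 1.4 FPKM with spermine at 3 h and 0.324 and 0.186 FPKM with PBS at 3 h. At 0 h it had 0.0165 and 0.00753 FPKM with spermine and was listed at 0 in both PBS libraries. Tmprss2 passed the filter for testing only through the spermine 3 h libraries, where it is high, so its difference from the other groups is given as values and not as a test. B230307C23Rik fell by 0.79 with spermine at 3 h (limma adjusted p = 0.00109), whereas Zbtb21, a zinc finger gene, rose by 0.36 (adjusted p = 0.00506). C2cd2 differed by 0.33 (limma adjusted p = 0.0342), a call lost in 6 of the 8 fits that left out 1 library.

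**Figure D5:**
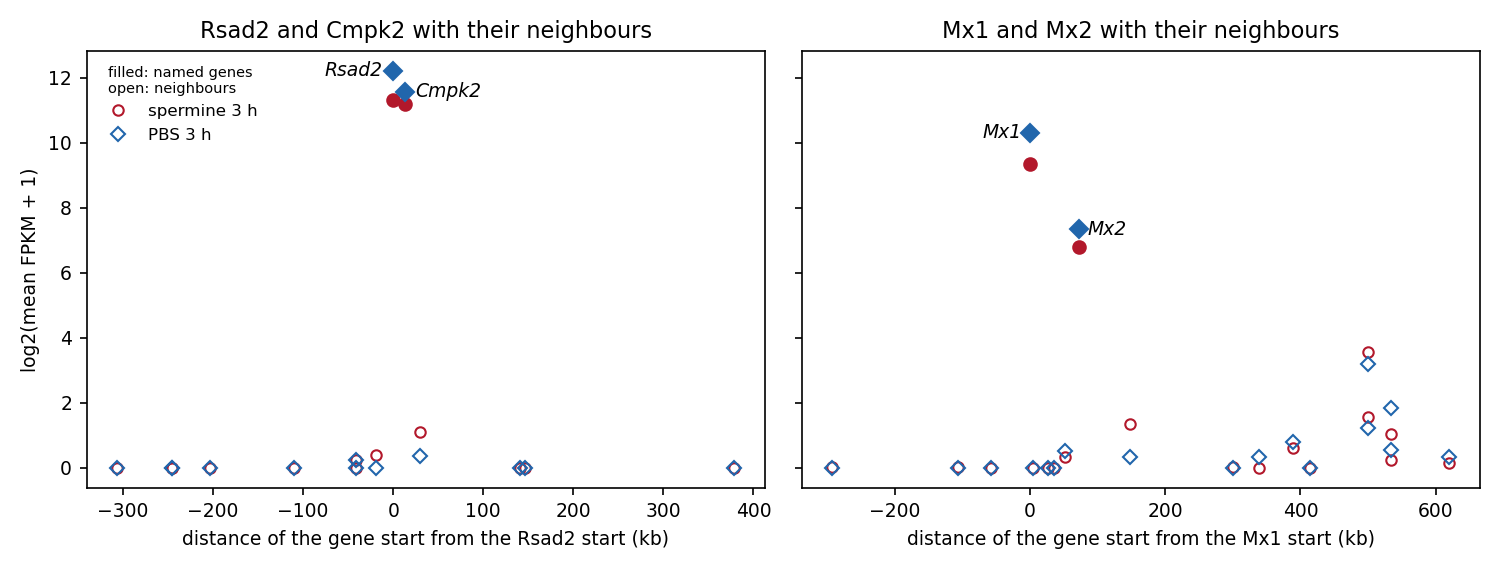
Log2 of mean FPKM + 1 at 3 h for the gene rows within 500 kb of each pair, against the distance of the gene start from the start of Rsad2 or Mx1 in kb. The named genes (filled) stand above all their neighbours (open), and PBS lies above spermine for each named gene.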

How the data were processed

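The authors deposited FPKM for 54532 gene rows in 8 libraries, with gene length, biotype and position. The submitters' processing notes list DESeq2 1.20.0, featureCounts 1.5.0-p3 and HISAT2 2.0.5 beside CASAVA 1.8, fastp and the builds GRCm38 and mm10, without saying what each did. No label states whether the libraries keep strand. The series text names DMSO and the sample labels PBS; the labels were followed. Deposited FPKM times length was a whole multiple of a step per library for 100.0% of values (tolerance 0.001), so reads were rebuilt. The deposited scale equals median-of-ratios size factors.

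The 11421 genes that reached an FPKM of 1 in 2 or more libraries were fitted with limma 3.58.1 (R 4.3.3) on log2(FPKM + 1) as 4 group means over all 8 libraries with an intensity trend. The fit had 4 residual and 2.83 prior degrees of freedom. Tests were two-sided, with Benjamini-Hochberg adjustment over all genes of each of 5 comparisons. The script was tested on simulated data. The named genes were the 4 members, up to 4 largest called changes per list and comparison, signalling genes fixed by name, the 5 most like genes, and tested neighbours within 500 kb. Members and lists were chosen with earlier results of these data known. Alternatives changed the pseudocount, filter, trend, scale, libraries, groups fitted and replicate block, or used limma voom on rebuilt reads. Promoters came from RefSeq (GRCm38.p6); Mx1 and Mx2 promoters were not used here, and a few named genes are not reported here.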

Additional observations from a re-analysis of the deposited data

Results flagged for a closer look

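The IFN-β response of Rsad2 differed between spermine and PBS in limma's test of the difference itself, by -1.13 on the log2 scale (adjusted p = 0.00354), with a rise of 9.06 with spermine and 10.19 with PBS. The IFN-β response of Mx1 differed by -0.88 (limma adjusted p = 0.0212), with a rise of 7.80 with spermine and 8.68 with PBS. The Mx1 call was lost with a pseudocount of 0.1, with no filter on low values, after TPM rescaling and in 5 of the 8 fits that left out 1 library, whereas the Rsad2 call held in each alternative run.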

How the results depend on the processing

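In each alternative run the Mx2 rises on IFN-β kept their direction. The IFN-β rises of Rsad2, Cmpk2 and Mx1 kept their direction and call in each. Falls of Rsad2, Mx1 and Mx2 with spermine at 3 h also kept their direction and call. The Rsad2 difference of responses did so too, at -1.57 to -1.06 in other fits and -1.24 to -1.03 leaving out 1 library. With spermine at 3 h, Cmpk2 passed in the TPM (-0.58), quantile (-0.49), voom (-0.38) and 2-group (-0.38) fits, and ranged from -0.38 to -0.37 leaving out 1 library. At 0 h, Cmpk2 lost its call with no filter (-0.42), no trend (-0.42), quantile values (-0.31), the replicate block (-0.42) and 2 groups (-0.42), and ranged from -0.62 to -0.22 leaving out 1 library. At 0 h Rsad2 passed with pseudocount 0.1 (0.28), turned sign with TPM (-0.05) and ranged from 0.17 to 0.28 leaving out 1 library. Mx1 at 0 h passed with TPM (-0.43), turned with quantile values (0.00) and ranged from -0.22 to 0.02 leaving out 1 library. Mx2 at 0 h passed with pseudocount 0.1 (-0.70), TPM (-0.73) and the replicate block (-0.26), and ranged from -0.32 to -0.21 leaving out 1 library. The Cmpk2 difference turned to -0.19 with quantile values and ranged from -0.15 to 0.24 leaving out 1 library. The Mx1 difference lost its call with pseudocount 0.1 (-0.84), no filter (-0.88) and TPM (-0.75), and ranged from -1.0 to -0.75 leaving out 1 library. The Mx2 difference turned to 0.17 with pseudocount 0.1 and 0.32 with voom, and passed at -0.51 with quantile values. The cause of these changes was not tested.

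Leaving out 1 library, 2912 to 4645 genes changed with spermine at 3 h (4626 with all; 2912 without spermine 3 h replicate 1), 2999 to 4897 at 0 h (4706 with all; 2999 without PBS 0 h replicate 2), and 520 to 1671 for the difference (1550 with all). Same-numbered libraries share BM1 or BM2 in their titles, but the labels do not say whether they are paired. Their deviations correlated above 0.1 in 3 of 6 group pairs (0.229, 0.246 and 0.371). The correlations were below 0 in the 3 pairs with spermine at 3 h (-0.0615, -0.089 and -0.126). The replicate block was therefore kept as an alternative. It gave 5033, 5956, 4978, 4996 and 1813 changed genes. Among other genes, TPM turned Ifnar1 (-0.20), Jak1 (-0.24) and Zbtb21 (-0.13) for IFN-β with spermine, Atl3 (-0.10), Ifnar2 (-0.29) and Jak1 (-0.17) for IFN-β with PBS, Jak1 (-0.14) and Irf9 (-0.08) for spermine at 3 h, Jak1 (-0.07) at 0 h, and C2cd2 (0.07) for the difference. Quantile values turned Ifnar1 (-0.13) and Jak1 (-0.21) with spermine, Ifnar2 (-0.26) and Jak1 (-0.12) with PBS, and Jak1 (-0.07) for spermine at 3 h. Leaving out spermine 0 h replicate 2 turned the C2cd2 difference (0.02). With 2 libraries a group and few reads at 0 h, small differences there could not be resolved.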
